A study of Drosophila melanogaster with 2 samples.

Results

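The genes that shape the denticles and hairs of the fly epidermis were examined for peaks of Sox102F, a SoxD-family DNA-binding protein of the fruit fly. The 10 genes were listed by name and by known role, not by any measured value, though with earlier results of these data known. All 10 were found among the 13968 protein-coding genes on the 7 chromosome arms of Ensembl release 115. They are the regulator ovo, the actin effector genes sha, mwh, f and sn, and the zona pellucida effector genes m, dyl, tyn, neo and nyo. The chromatin came from whole embryos aged 12 to 14 h of a transgenic line that stably carries Sox102F fused at its C-terminus to GFP, and it was precipitated with an antibody to GFP. The antibody label names Sox102F, while the description names GFP. There was 1 group of 2 biological replicates, numbered 2 and 3, and no second genotype, treatment or age. Whole embryos mix many cell types, so a peak cannot be placed in the epidermis, and the lists hold no expression by which the tissue could be checked. Both replicates carry the fusion, and no untagged group was analysed here.

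Denticles and hairs are stiff, actin-filled extensions that epidermal cells push out from the apical surface before the cuticle is laid down. The zinc finger protein Shavenbaby, an epidermal product of ovo, switches on the genes that build them. One set of its targets bundles or places the actin filaments inside the extension, and another encodes zona pellucida domain proteins that hold the apical membrane to the cuticle. Another Sox protein of the fly, SoxNeuro, is known to act together with Shavenbaby in this tissue.

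Peaks were read from 4 deposited lists, those of replicate 2, of replicate 3 and of both replicates pooled, with 30000 peaks each, and an optimal list of 7488 that equals the highest pooled peaks. A peak was placed by its summit, and it carries the authors' signal value, which ranks peaks within a list and has no stated scaling between lists. In the optimal list the signal values ran from 97.2 to 4785 with a median of 204. Summits were counted within 500 bp of any transcription start site (TSS) of a gene, in the gene body, and in a window of the gene body with 20 kb either side. With 1 group there is no comparison of conditions, so counts are set beside those of all protein-coding genes without a test. Read counts were not part of the lists, so the depth behind each peak is unknown.

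Optimal Sox102F summits were found in the bodies of most of these genes, and at a start site of tyn alone. Of the members, only tyn had an optimal summit within 500 bp of a TSS, which is 1 of 10, near the 16.9% over all protein-coding genes. An optimal summit in the gene body was found at 7 of 10 members, beside 14.3% of all genes. These members are long, and the share rises with length. It was 25.8% among all genes of 5 to 10 kb, the class of neo, which had none, and 47.6% among those of 10 to 20 kb, where 1 of 3 members (dyl, but not m or sha) had one. It was 67.5% among genes of 20 to 50 kb, where all 5 members (ovo, mwh, f, sn, nyo) had one, and 75.4% above 50 kb, where tyn had one. A summit in the window was found for 8 of 10 members, near the 83.2% of all genes. Of the 10 members, sha and neo had no optimal summit in the window.

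The windows held 40 optimal summits, none of them counted for more than 1 member. Of these, 15 lay in the gene bodies, 8 upstream and 17 downstream. For 25 of the 40 the nearest TSS of a protein-coding gene belonged to another gene, so a window count is not a count of sites of the member itself. By position, 22 of the 40 summits were in introns, 10 at promoters, 4 in intergenic sequence, 3 in a gene that encodes no protein and 1 in a 3′ UTR. In shares, 55% were in introns and 25% at promoters, beside 48.2% and 27.4% of all optimal summits. Intergenic sequence held 10% beside 20.3%, and genes that encode no protein 7.5% beside 2.58%. That 7.5% was 3 summits in the same gene, which overlaps ovo. Coding sequence held none of the 40 and 0.2% of all. Of the 10 promoter summits 9 were at promoters of other genes.

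**Figure D1:**
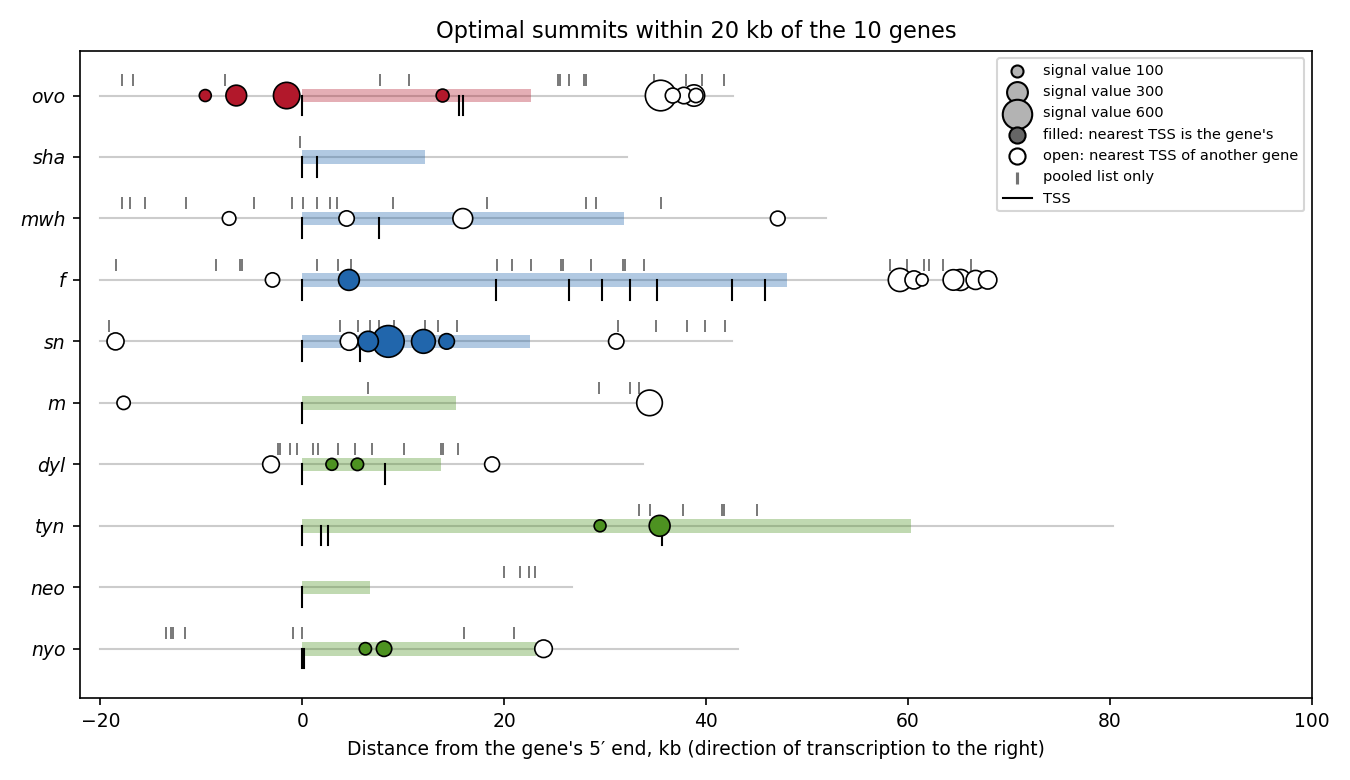
Optimal summits (circles, area proportional to signal value) at each of the 10 genes, by distance in kb from the gene's 5′ end along the direction of transcription; bars are gene bodies, black ticks TSSs, grey ticks summits of the pooled list outside the optimal list. Filled circles, whose nearest TSS is the gene's own, are found at ovo, f, sn, dyl, tyn and nyo, while all 4 circles of mwh and both of m are open and sha and neo have none.

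The sequence under the highest optimal summit in or nearest to a member is shown for 7 members, so that the site of ovo can be read beside those of its effectors. The summits of m lay nearest to other genes, and sha and neo had none. Each is read from the RefSeq release 6 sequence of the dm6 assembly on the plus strand, from 50 bp before to 50 bp after the summit. The sequence had to lie outside UTRs. Capitals mark the Sox core word ACAAT on either strand.
ovo at chrX:5046671-5046771: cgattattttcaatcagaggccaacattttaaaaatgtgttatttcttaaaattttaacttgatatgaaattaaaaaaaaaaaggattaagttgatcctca
mwh at chr3L:1216615-1216715: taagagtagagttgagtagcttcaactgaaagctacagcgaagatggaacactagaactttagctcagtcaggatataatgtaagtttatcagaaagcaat
f at chrX:17237517-17237617: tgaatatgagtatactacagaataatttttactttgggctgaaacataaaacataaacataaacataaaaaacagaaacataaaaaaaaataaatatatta
sn at chrX:7972497-7972597: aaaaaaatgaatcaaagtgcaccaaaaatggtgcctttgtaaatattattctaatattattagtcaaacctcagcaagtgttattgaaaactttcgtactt
dyl at chr3L:4302212-4302312: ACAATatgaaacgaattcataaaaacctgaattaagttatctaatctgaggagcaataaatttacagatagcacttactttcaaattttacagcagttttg
tyn at chrX:175716-175816: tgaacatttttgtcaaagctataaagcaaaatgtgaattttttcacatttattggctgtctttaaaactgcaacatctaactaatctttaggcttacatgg
nyo at chr3R:31551079-31551179: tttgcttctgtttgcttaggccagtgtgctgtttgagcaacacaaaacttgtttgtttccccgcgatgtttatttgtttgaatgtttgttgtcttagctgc

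Of these 7 sequences, that of dyl held the word, at its left end, and the other 6 had none. The share of A and T ran from 59.4% at nyo to 81.2% at f. Over the 40 summits its median was 69.3%, beside 70.3% around all optimal summits.

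The regulator ovo, on the X chromosome from 5048273 to 5070929 on the plus strand, had 9 optimal summits in its window, 1 in the gene body. The strongest of the 4 that were nearest to an ovo TSS lay 1552 bp upstream of the 5′-most start site, at 5046721 (peak 5046561 to 5046874). Its signal value was 481 (rank 1289), with 199 in replicate 2 (rank 1105) and 278 in replicate 3 (rank 1453). A second lay 6536 bp upstream, with 296 in the optimal list, 110 in replicate 2 and 183 in replicate 3. The remaining upstream summit, at 9609 bp, had 98.7 (rank 7390), close to the lowest value of the list. All 3 lay inside lncRNA:CR44833, a gene of 107 kb (4956646 to 5063868, minus strand) that encodes no protein and overlaps ovo. The summit inside ovo, at 5062146, lay in an intron 1698 bp before the pair of internal start sites. It too lay within the span of lncRNA:CR44833, but was classed by the intron of ovo. It had 115 in the optimal list and 70.1 in replicate 3, and no peak of replicate 2 covered it.

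The remaining sequences nearest to ovo, at 296, 115 and 98.7, are shown to set the weaker sites beside the strongest. They were chosen after their values were seen, and the capitals have the same meaning.
ovo at chrX:5041687-5041787: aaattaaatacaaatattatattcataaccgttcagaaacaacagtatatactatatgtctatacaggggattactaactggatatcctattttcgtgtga
ovo at chrX:5062096-5062196: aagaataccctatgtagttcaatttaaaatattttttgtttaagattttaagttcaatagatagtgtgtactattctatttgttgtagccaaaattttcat
ovo at chrX:5038614-5038714: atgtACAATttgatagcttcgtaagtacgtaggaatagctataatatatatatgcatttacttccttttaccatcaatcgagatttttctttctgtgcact

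The word ACAAT was found in the weakest of these 3 and not in the others. Within the sequence at 6536 bp upstream lies the Ovo word ACNGTTA, read on the other strand, which 3.66% of all optimal summits also had. No further optimal summit was found between 10 and 50 kb upstream of ovo. Weaker peaks were listed there, 12 in the pooled list, 14 in replicate 2 and 12 in replicate 3. The highest of these in the pooled list, 45.3 kb upstream, had a signal value of 97.1 and rank 7499, just outside the 7488 of the optimal list. Another, 16.8 kb upstream, had 92.9. The embryonic enhancers of Shavenbaby are known to be spread over a long region upstream of ovo, but their positions are not in the files, and no peak was matched to one.

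The other 5 summits of the ovo window began 12.8 kb downstream of the gene, next to CG32767 and rg, which encodes an A-kinase anchor protein. They included the highest of the window, at 5083774, with 646 in the optimal list, 218 in replicate 2 and 421 in replicate 3, in an intron of CG32767. The other 4 had 138 to 316, and 2 of the 5 were at promoters, of CG32767 and of rg together with the overlapping CG15465. With flanks of 10 kb, ovo kept 4 summits.

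Among the actin effector genes, sn had the most summits of its own. The gene encodes fascin, which bundles actin filaments in bristles and hairs, and lies on X from 7964024 to 7986601 on the plus strand. It held 5 optimal summits, or 2.21 per 10 kb of gene body, beside 0.546 over the 7 arms. The highest, at 7972547 in an intron, 2844 bp after the second TSS, had 696 in the optimal list (rank 694). That site had 278 in replicate 2 (rank 640) and 414 in replicate 3 (rank 757), so it stood high in both. The summit at 7976035 had 390 in the optimal list, 144 in replicate 2 and 247 in replicate 3. Another, 854 bp after the second TSS, had 284, 103 and 186 in these lists, and the one at 7978298 had 167, 66.6 and 104. The remaining one in the gene, at 7968667, had 217 and was nearest to sws, which encodes a phospholipase, 431 bp upstream of its TSS. The window also held a summit of 200 inside Ubr3 and orion. Ubr3 encodes a ubiquitin ligase that takes part in turning Shavenbaby into an activator. That summit lay in a peak of replicate 3 (139) but not of replicate 2.

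The gene f encodes Forked, which also bundles actin, and lies on X from 17232942 to 17280964 on the plus strand with 8 start sites. Its window held 9 optimal summits, and 1 of them lay in the gene, in an intron at 17237567, 4625 bp after the 5′-most TSS. That summit had 300 in the optimal list, 114 in replicate 2 and 188 in replicate 3. The other summits mostly belonged to a neighbour: 7 of the 9 lay downstream inside Fim and CG5445. Fim encodes fimbrin, another protein that cross-links actin. These 7 had signal values from 99.7 to 371, and all were in peaks of both replicates. The last, 2949 bp upstream of f and nearest to CG10597, had 141. Within 10 kb of f only 2 summits were left.

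The gene mwh encodes a formin-like protein that limits the number of hairs on a cell, and lies on 3L from 1200786 to 1232700 on the plus strand. It held 2 optimal summits in its body, but neither was nearest to its own TSS. The one at 1216665 had 271 in the optimal list, 106 in replicate 2 and 163 in replicate 3, in an intron of mwh and nearest to LysP. The one at 1205173 had 162, 65.4 and 99.1, and lay at the promoter of CG9119. The last 2 were at the promoters of Trhn (127) and Sac1 (149). At the 5′-most TSS of mwh itself a weaker pooled peak lay 28 bp away, with 40.5 (rank 15635), and there were peaks of 17.1 in replicate 2 and 20.5 in replicate 3.

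The gene sha, which encodes Shavenoid and is needed for the actin bundles of hairs and denticles, had no optimal summit in its window. It lies on 2R from 11324314 to 11336463 on the plus strand, and the nearest optimal summit was 35067 bp from its first TSS. A single pooled peak was listed, 209 bp upstream of that TSS, with 38.7 (rank 16254). Replicate 3 had a peak of 31.6 at the same place, and in replicate 2 the nearest summit was 800 bp away with 11.6. The pooled value lies below the lowest of the optimal list, which was cut from the pooled list.

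Each zona pellucida gene had fewer optimal summits in its window than ovo or sn. The only optimal summit at a promoter of any member was at tyn, which encodes Trynity and lies on X from 140318 to 200663 on the plus strand. At 175766 it lay 207 bp upstream of the last of its 4 start sites, which is inside the gene. It had 301 in the optimal list (rank 2373), 97.8 in replicate 2 (rank 2916) and 185 in replicate 3 (rank 2507). The other 3 start sites lay 26932 bp or more from the nearest pooled summit. The other summit of tyn, at 169785, had 97.3 (rank 7483), and was in a peak of replicate 2 (50.3) but not of replicate 3.

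The gene dyl encodes Dusky-like and lies on 3L from 4294004 to 4307718 on the minus strand. Its 2 summits in introns had 106 and 97.3, ranks 6985 and 7482 of 7488, so both stand near the end of the list. The first had 46.1 in replicate 2 and 56.4 in replicate 3, the second 28.1 and 73.5. The highest summit of its window lay 3095 bp upstream of its 5′-most TSS, nearest to Claspin, a checkpoint gene. It had 192 in the optimal list (rank 3979), 99.7 in replicate 2 and 105 in replicate 3. The last, at the promoter of Hexo1, a hexosaminidase gene, had 153 and lay in a peak of replicate 3 (108) but not of replicate 2.

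The gene nyo, for Nyobe, on 3R from 31543032 to 31566165, held 2 summits in introns, at 31551129 with 163 (60.4 in replicate 2, 103 in replicate 3) and at 31549283 with 104 (43.2 and 68.3). Its highest summit, at 31566945, lay 780 bp past the end of the gene and nearest to gammaCOP, which encodes a vesicle coat protein. That summit had 213 in the optimal list (rank 3584), 93 in replicate 2 and 122 in replicate 3. The window of m, which encodes Miniature, on X from 11754273 to 11769508, held 2 optimal summits, both away from the gene. One was at the promoter of Karl, a lipocalin gene, with 454 in the optimal list, 158 in replicate 2 and 299 in replicate 3. The other, with 122, was 17675 bp from the TSS of m and nearest to inaF-A. For neo, which encodes Neyo, on 3R from 29819131 to 29825800, no optimal summit was listed, and the 4 pooled peaks of its window, from 19.2 to 31.9, all lay downstream, nearest to Cad99C.

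Set beside its effectors, ovo had the highest density of optimal summits in the window with 20 kb flanks, and the order turned with the flank. With 20 kb it had 1.44 per 10 kb, above 89.9% of all protein-coding genes, whose median was 0.489. The actin gene sn followed with 1.12 (above 80.8% of genes) and f with 1.02 (79.4%), then dyl with 0.745, mwh with 0.556, nyo with 0.475, m with 0.362 and tyn with 0.199. With flanks of 10 kb, sn had 1.41 and dyl 1.19, both above the 0.938 of ovo. With 50 kb ovo was again highest, at 0.978, followed by dyl at 0.791. Among peaks above the median signal, with 20 kb flanks, f had 0.795, sn 0.639 and ovo 0.638.

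With 20 kb flanks the genes sha and neo shared the value of 0 with 16.8% of all genes. The median over the 10 members was 0.516. By role, the windows of the 4 actin genes held 20 summits (0.728 per 10 kb), and those of the 5 zona pellucida genes held 11 (0.345 per 10 kb).

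The order changed when only the gene bodies were counted. There ovo had 0.441 per 10 kb, the actin genes together had 0.698 and the zona pellucida genes 0.504. Of the 9 summits of ovo, 8 lay outside the gene. Of the summits nearest to their own TSSs, ovo had 4, the actin genes 5 and the zona pellucida genes 6. Over all summits in the windows with 20 kb flanks, signal values overlapped among the roles. They ran from 98.7 to 646 for ovo (median 187), from 99.7 to 696 for the actin genes (median 228) and from 97.3 to 454 for the zona pellucida genes (median 153). Above the list's median of 204 were 4 of 9, 12 of 20 and 3 of 11 in the same order. Many of these summits were nearest to other genes, 5 for ovo, 15 for the actin genes and 5 for the zona pellucida genes. The 646 lay in CG32767 and the 454 at the promoter of Karl, while the 696 lay in sn. These values thus describe the windows and not the members alone. Genes of one role are not replicates, so no test of these differences was made.

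**Figure D2:**
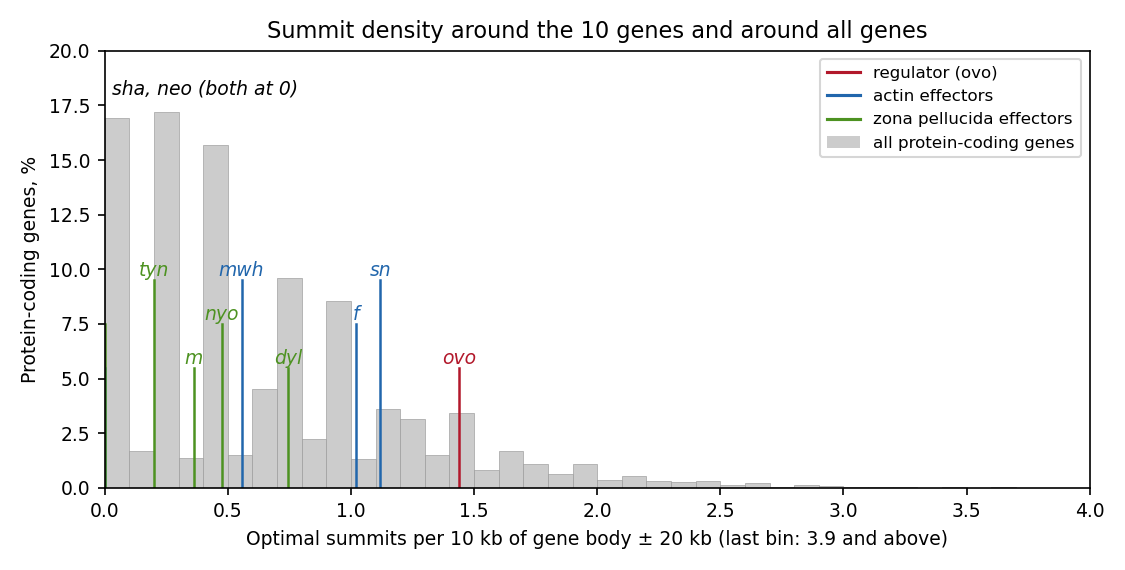
Share of all protein-coding genes (grey bars, %) by optimal summits per 10 kb of gene body with 20 kb either side, with the 10 members as coloured lines whose height has no meaning. With these flanks the line of ovo stands farthest right at 1.44, followed by sn at 1.12 and f at 1.02, and sha and neo are at 0.

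Most of these sites were listed in each replicate, but this is no independent check of them. Data from replicates 2 and 3 had already gone into choosing the optimal peaks, so a high share could follow from that choice. Of the 40 summits, 35 lay in peaks of both replicates (87.5%, 95% Wilson interval 73.9 to 94.5%), beside 94.4% of all optimal summits. The interval covers counting error only and takes the summits as independent, although several lie close together. The 3 summits that no peak of replicate 2 covered were those in ovo, in Ubr3 and at the promoter of Hexo1 near dyl, and the 2 that no peak of replicate 3 covered were that of tyn at 169785 and one near Tbh downstream of sn. The site near Tbh did have a replicate 3 peak, with 104, whose summit was 66 bp away. At tyn the nearest replicate 3 summit was 3940 bp away. When both peaks had to overlap by 50% of their length, 57.5% of the 40 were found in both replicates, beside 72.1% of all optimal summits. By either rule the members had the lower share. The interval above, given for the first rule only, takes in 94.4% just below its upper end of 94.5%, and no test was made.

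**Figure D3:**
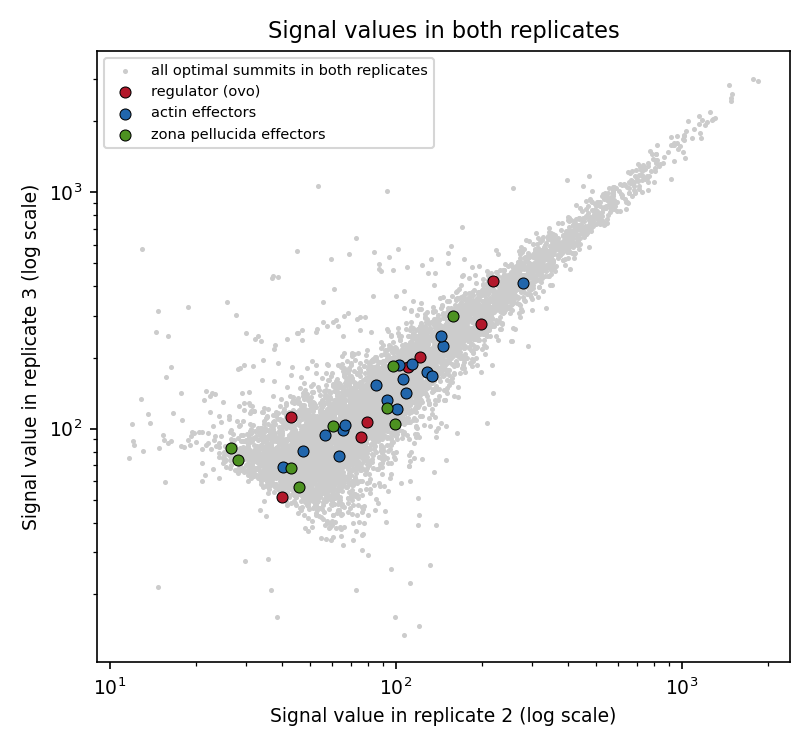
Signal values in replicate 2 (horizontal) and replicate 3 (vertical), both on log scales, for all optimal summits that lie in peaks of both (grey) and for the 35 of the members (coloured by role). The summits of sn at 278 and 414 and of ovo at 199 and 278 lie inside the grey cloud, as do those of the weaker sites.

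More members had promoter peaks in the longer lists, which reach weaker signal. In the pooled list 6 of 10 members had a summit within 500 bp of a TSS (sha, mwh, f, sn, tyn, nyo), beside 29.5% of all genes. Apart from tyn, their nearest pooled summits to a TSS had 21.9 to 54.4. In replicate 2 there were 4 (mwh, f, sn, tyn), beside 28.6%. In replicate 3 there were 7 (sha, mwh, f, sn, dyl, tyn, nyo), beside 37.0%. In none of the 4 lists did ovo, m or neo have one. A pooled summit in the gene body was found at 8 of 10 members, beside 23.7% of all genes, and in the window at 10 of 10, beside 93.4%. The shares of all genes were not matched for gene length or for the number of start sites, which was 8 at f and 4 at tyn. The number of pooled summits in the window ran from 1 at sha to 31 at f, with 23 at ovo and 21 at sn.

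**Figure D4:**
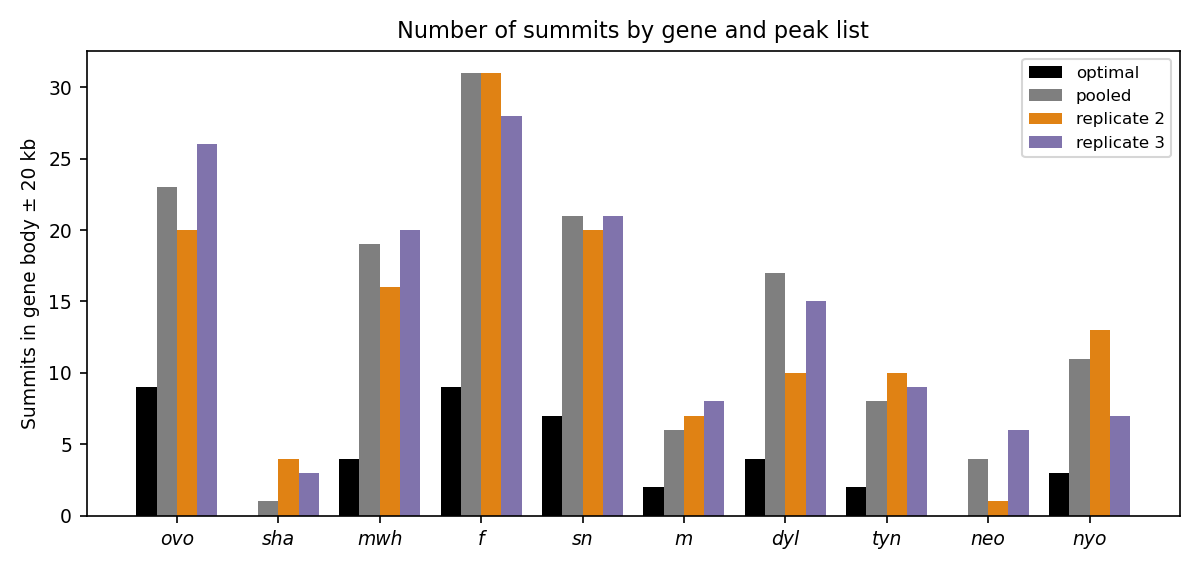
Number of summits in the gene body with 20 kb either side for each member in the optimal, pooled, replicate 2 and replicate 3 lists. The counts of ovo (20 in replicate 2, 26 in replicate 3), f (31 and 28) and sn (20 and 21) are the highest in both replicates, and sha (4 and 3) and neo (1 and 6) the lowest.

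Sequence words were searched on both strands within 50 bp of the 40 summits. The Sox core ACAAT was found at 14 of them (35%, Wilson interval 22.1 to 50.5%), beside 33.9% of all optimal summits. In windows 300 bp to either side it was found at 18.8%, beside 23.6% for all. It lay at 4 of the 9 summits of the ovo window, 7 of 20 of the actin genes and 3 of 11 of the zona pellucida genes. The longer AACAAT, which contains ACAAT, was found at 7 of the 40 (17.5%, beside 15.4%). Within 25 bp of the summit ACAAT was found at 12.5%, beside 18.1% of all optimal summits. The Wilson interval covers counting error only and takes the summits as independent, although several lie close together.

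The Sox words spelled backwards, which have the same base composition, served as controls. The word TAACA was found at 8 of the 40 (20%, beside 29.9%) and TAACAA, which contains it, at 3 (7.5%, beside 13.6%). In the windows 300 bp to either side TAACA was found at 17.5%, beside 16.6% for all, and TAACAA at 7.5%, beside 7.33%. Over all optimal summits the reversed words, like ACAAT, were thus more frequent at the summit than in these windows. The word ACAAAG, which TCF and Sox proteins can both bind, was found at 2, the highest pair of summits inside sn (5% of the 40, beside 7.6%), and both of these also held TAACA. The homeodomain word TAATTA and the GATA word AGATAA were found at 2 each (5%, beside 11.9% and 9.05%), and the Ovo word ACNGTTA at 1 (2.5%, beside 3.66%). The GAGA word GAGAGAG, the DRE word TATCGATA and the Grainyhead word AACCGGTT were found at none, where all optimal summits had 0.574%, 0.588% and 0.0668%.

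Of 50 other genes of the pathway in 4 lists, 46 were found by their symbols, spelled exactly. The entries ser and dp were lost by spelling, since the annotation has Ser and dpy. Neither of those had an optimal promoter summit, and their windows held 3 and 4 summits. The entries tal, of the regulators, and cutl, of the zona pellucida genes, matched no gene either. The shares that follow leave all 4 out, and 16.9% of all protein-coding genes had an optimal promoter summit. Among 12 regulators of ovo or of the epidermis, 2 had an optimal promoter summit (16.7%), spi, which encodes a ligand of the EGF receptor, with a signal value of 1159, and grh, the Grainyhead gene, with 211. SoxN, the gene of SoxNeuro, had none in its body and 2 in its window. Among 14 other actin and microtubule regulators, 7 had one (50%), the highest being sqh, the regulatory light chain of myosin, with 553, then chas, which encodes Chascon, with 525, dia, a formin, with 252 and WASp, an activator of actin branching, with 208. Among 8 other zona pellucida genes qsm had one, with 218 (12.5%), and among 12 planar polarity genes none had. In their windows 10 of 12, 14 of 14, 7 of 8 and 12 of 12 had an optimal summit, beside 83.2% of all protein-coding genes. The median counts were 4.5, 4, 3 and 3.5, beside 3.5 for the members and 2 for all protein-coding genes. These counts were not matched for the length of the window. Per 10 kb of window the median of the members was 0.516, beside 0.489 for all protein-coding genes.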

How the data were processed

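Peaks were deposited by the authors as narrowPeak files on the dm6 assembly. Per the file lists deposited with them, replicate peaks came from that replicate's alignments and a control file, pooled peaks from both replicates' alignments and the same control, and the optimal list from those 3 lists. The aligner and the caller were not given in the sources used here. Each signal value is the authors' deposited score per peak, with no scaling stated. The deposited −log10 q-value was at the same value throughout the optimal list and was not used. The replicate and pooled lists each end at 30000 peaks, so their weakest entries depend on that limit.

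Summits (start plus offset, written 1-based) were placed on Ensembl release 115, whose arms hold every peak. A summit took the first class that applied: promoter (within 500 bp of a protein-coding TSS), UTR, coding sequence, intron, gene that encodes no protein, intergenic. Replicate agreement required the summit to lie in the replicate's peak. Counts of summits were checked on simulated data. No test was made, because 2 replicates of 1 group give no comparison. The members and the gene lists were chosen with earlier results of these data known. All members are named, with the nearest gene of each summit and up to 4 genes per other list by promoter signal value. Of the 50 other symbols 4 matched no gene by exact spelling and were left out, although 2 of them (ser and dp) differ from annotated symbols (Ser and dpy) only in spelling. Alternatives covered promoter windows, flanks, peak lists, each replicate alone, overlap rules and word windows. Depth was unknown. Computation ran in Python 3.11.15 with pandas 2.3.3, numpy 2.4.6 for arrays, matplotlib 3.10.9 for plots and scipy 1.17.1 for intervals. The control was not analysed here.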

Additional observations from a re-analysis of the deposited data

How the results depend on the processing

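The count of members with a promoter summit was 1, and became 2 with a window of 1000 bp (20.8% of all genes), 0 with only the 5′-most TSS (14.5%) and 6 in the pooled list. The count with a summit in the body fell from 7 to 4 among optimal peaks above the median signal (9.68% of all genes). The 40 summits of all windows became 24 with 10 kb flanks, 71 with 50 kb, 141 in the pooled list, 19 above the median signal, and 15 when the nearest TSS had to be a member's. For ovo the 9 summits became 4 with 10 kb flanks, 23 in the pooled list and 4 above the median. For the actin genes the 20 became 11, 72 and 12 in the same order. For the zona pellucida genes the 11 became 29 with 50 kb flanks, 46 in the pooled list and 3 above the median. The share in both replicates was 57.5% with 50% reciprocal overlap. The share with a Sox word was 12.5% within 25 bp and 57.5% within 100 bp, beside 18.1% and 53.1% of all optimal summits.

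With each replicate alone, its 7488 highest peaks were used. The promoter count was 1 both times, the body count 6 to 7, the window count 8 to 10, all summits 37 to 42, those of ovo 7 to 8, of the actin genes 21 both times and of the zona pellucida genes 9 to 13. Other alternatives moved no count by more than 1.5 times. No paired analysis was possible because there is only 1 group. No test was made, so no call rests on these settings, and without read counts no limit from depth can be given.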

Other observations

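Some of the 7488 highest peaks of a replicate had no pooled peak at their summit, which was noticed after the values were seen. In the windows of the members there were 3 such peaks in replicate 2 and 5 in replicate 3. Near sha the promoter of CG7745, 16566 bp upstream, had a signal value of 153 in replicate 3 (rank 3140). Near neo the promoters of CG7789 and of the caspase gene Drice had 159 (rank 3009) and 101 (rank 5000) in replicate 3, and near dyl an intergenic site had 79.5 (rank 6324). None of these 4 lay in a peak of replicate 2. Near m an intron of dy had a peak in both replicates, with 80.1 in replicate 2 (rank 3689) and 158 in replicate 3 (rank 3040), and no pooled peak. The other 2 of replicate 2 were at the sws promoter in sn (101), which also lay in a peak of replicate 3, and in an intron beyond mwh, nearest to CG9192 (42.4), which did not. The peak at sws is no separate site, since it covers the optimal summit at 7968667, 98 bp from its own summit. The rule looks only at the replicate summit, so these counts can include peaks that overlap a pooled peak beside it. With replicate 3 alone the window counts were 1 for sha and 2 for neo in place of 0, and 3 for m in place of 2. Over all arms, 630 of the highest peaks of replicate 3 (8.41%) had no pooled peak at their summit, against 275 of replicate 2 (3.67%). Of these 630, 65.1% were at promoters, against 28.2% of the other highest peaks of replicate 3. In replicate 2 the shares at promoters were 39.6% and 25.2%. The cause was not tested.

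Genes beside the members hold several of the higher summits. Those inside Fim next to f, in CG32767 beyond ovo and at the promoter of Karl beyond m have values of 371, 646 and 454, each above the highest summit nearest to its member's own TSS where there is one (300 at f and 481 at ovo). The highest summits of the windows of mwh, dyl and nyo were also nearest to another gene. At sn (696, the highest of all members) and tyn (301) the highest was nearest to the gene's own TSS.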
